A study of Homo sapiens with 6 samples.

Results

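Mitochondria carry their own ribosome, the mitoribosome, which translates the few proteins encoded in mitochondrial DNA, all of them parts of the respiratory chain and ATP synthase. Its RNA comes from the mitochondrial genome, whereas its proteins are encoded in the nucleus, made in the cytosol and imported. The genes named MRPL and MRPS encode most proteins of the large and the small subunit. Some of these proteins descend from bacterial ribosomal proteins, and others were added in mitochondria.

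The genes described here are the human genes whose symbol is MRPL or MRPS, a number and, for some, a letter from A to C. The deposited files name 78 of them among 28965 genes with a value, and all 78 are protein-coding. By name, 49 are MRPL and 29 are MRPS genes. By the place of the protein, 51 belong to the large subunit, MRPS18A and MRPS30 included, and 26 to the small subunit. The remaining gene, MRPS36, is counted in neither, since its protein is a subunit of a dehydrogenase complex of the citric acid cycle. The members lie on 21 chromosomes, with at most 8 on any of them.

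The RNA came from HaCaT cells, an immortalised line of human keratinocytes, in 2 groups of 3 libraries. The first group was transfected with 100 pmol of an siRNA against PSENEN, the gene of a γ-secretase subunit, part of a protease that cuts Notch receptors in the membrane. The second received a mismatch siRNA, for which the labels state no amount. Lipofectamine 2000 carried the siRNA in, and RNA was taken at 48 and 72 h, without a statement of which time was sequenced. Cells given only the reagent, a group that the labels mention, were not analysed here. The labels do not say that the 3 libraries of a group came from separate cultures, so p-values measure only the spread between libraries, which may be technical.

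The targeted gene followed the labels, at 1.75, 2.08 and 1.5 TPM (a transcript level corrected for length and library depth) in PSENEN siRNA libraries, against 6.58, 8.85 and 6.55 TPM in mismatch siRNA libraries. The estimated aligned sequence came to 9.16 to 11.9 gigabases per library with PSENEN siRNA and 11.5 to 15.6 with mismatch siRNA. The share of TPM that could be assigned to genes was 72.0% ± 0.539 with PSENEN siRNA and 73.6% ± 0.758 with mismatch siRNA (SD, n = 3), and the groups did not overlap. The 8 keratinocyte markers all averaged at least 1 TPM, and their summed level was 3695 to 4327 TPM with PSENEN siRNA and 5748 to 9075 TPM with mismatch siRNA. Summed markers of fibroblasts, melanocytes, leukocytes and endothelial cells reached at most 5.30 TPM in any library. The part of the keratinocyte marker difference in the results below was not tested. In bulk RNA, fewer cells of a type and less RNA per cell cannot be told apart.

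Short stretches of promoter are printed for the members on which the results turn, because a YY1 or an ETS word stood in many promoters of the group. YY1 is a zinc finger factor with many mitochondrial target genes, and the ETS word is the one bound by factors such as GABP. RefSeq promoters (GRCh38.p14, 250 bases before to 50 after the start site) were found for 69 of the 78 members. The 30-base windows below run 5′ to 3′ on the gene's strand, and the capitals mark the word AAGATGGC for YY1 and CCGGAAG for ETS, or its reverse complement GCCATCTT or CTTCCGG.
MRPS24, chr7:43869480-43869509, minus strand: ccgcttggcccAAGATGGCggcctccgtgt
MRPS18B, chr6:30617852-30617881, plus strand: gggcgtacgtcAAGATGGCggcgtctgtat
MRPS18A, chr6:43687764-43687793, minus strand: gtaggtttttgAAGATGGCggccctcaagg
MRPS18A, chr6:43687804-43687833, minus strand: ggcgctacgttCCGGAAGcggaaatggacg
MRPL30, chr2:99181028-99181057, plus strand: ggtctgctgcgCTTCCGGgaagtggtcatg
MRPL32, chr7:42932143-42932172, plus strand: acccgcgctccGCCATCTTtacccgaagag

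With both strands searched, AAGATGGC stood in 21 of the 69 member promoters (30.4%) and in 4.66% of the promoters of 15843 protein-coding genes. CCGGAAG stood in 30 of the 69 (43.5%) and in 16.5% of all. The NRF1 word, GCGC on either side of AT, stood in 1 of the 69 (1.45%) and in 1.99% of all. An ETS match and a YY1 match can share the letters AAG where they meet. In MRPS24, MRPS18B and MRPS18A the YY1 word began 19, 23 and 9 bases after the start site. MRPS18A also held the ETS word 31 bases before the start. None of the 3 words was found in the RefSeq promoters of MRPL4 and MRPS5. These matches describe the sequence only.

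Every member was measured in every library, with mean levels over the 6 libraries between 8.12 TPM (MRPS18C) and 122 TPM (MRPL51). The median member stood at 30.3 TPM, against 8.61 TPM for the median of all 16362 genes tested. The 10 most abundant members held 29.8% of the summed member TPM. Levels passed gradually down the order: in none of the 77 pairs of neighbours were the ranges over 6 libraries apart.

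The 4 most abundant members were MRPL51, MRPS24, MRPL3 and MRPS34. MRPL51, a large subunit protein without a bacterial counterpart, had 125, 109 and 98.8 TPM with PSENEN siRNA and 146, 136 and 117 TPM with mismatch siRNA. MRPL3, which lies close to the catalytic centre of the large subunit, had 99.3, 96.9 and 120 TPM with PSENEN siRNA and 98.6, 103 and 81.3 TPM with mismatch siRNA. MRPS34, a small subunit protein mutated in a form of Leigh syndrome, had 80.0, 76.3 and 87.9 TPM with PSENEN siRNA and 88.8, 79.8 and 81.0 TPM with mismatch siRNA. The 2 groups overlapped in MRPL51, MRPL3 and MRPS34.

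Summed over the 78 members, the level was 2762 ± 58.8 TPM with PSENEN siRNA and 2689 ± 248 TPM with mismatch siRNA (SD, n = 3; two-sided exact permutation p = 0.8, where 3 against 3 libraries allow no p under 0.1). The large subunit summed to 1815 ± 76.6 TPM with PSENEN siRNA and 1773 ± 162 TPM with mismatch siRNA (exact permutation p = 0.9). The small subunit summed to 939 ± 17.0 TPM with PSENEN siRNA and 907 ± 93.7 TPM with mismatch siRNA (exact permutation p = 0.7). The ratio of small to large subunit TPM was 0.518 ± 0.0307 with PSENEN siRNA and 0.512 ± 0.0252 with mismatch siRNA (exact permutation p = 0.7). In all 4 measures the groups overlapped, and the mismatch siRNA libraries spread more than the PSENEN siRNA libraries in the 3 sums. The direction of these small differences turned when assembled bases were summed in place of TPM and when mismatch siRNA library 3, the lowest in summed TPM, was left out of the 3 sums.

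**Figure D1:**
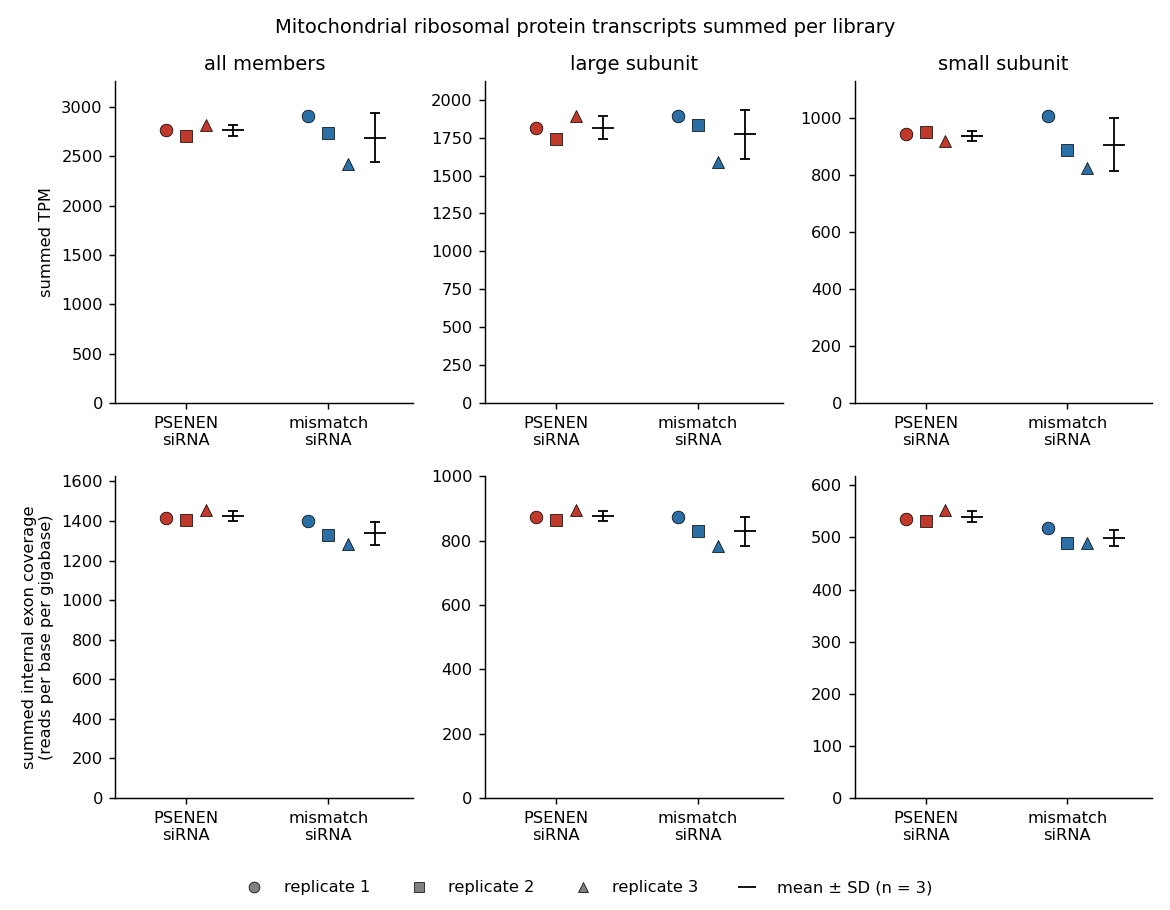
Summed level per library of all 78 members, the large subunit and the small subunit, as TPM (top row) and as internal exon coverage per gigabase of sequence over the 72 members with internal exons (bottom row). Points are libraries and bars are mean ± SD (n = 3): the groups overlap in TPM, and the exon sums of all members lie between 1404 and 1454 with PSENEN siRNA and between 1285 and 1401 with mismatch siRNA.

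No member passed the test in TPM. The fit was limma on log2(TPM + 1) over all genes, with Benjamini-Hochberg adjustment, and genes were called at an adjusted p under 0.05. By that rule 0 of 78 members were called, against 0.489% of all genes (80 of 16362, with 0.153% higher and 0.336% lower). At an unadjusted p under 0.05, 4 members were higher (all genes: 4.63%) and 1 was lower (all genes: 9.72%). The groups did not overlap, with PSENEN siRNA higher, in MRPL32 and MRPS24 (all genes: 7.82%). PSENEN siRNA was lower without overlap in MRPL35, MRPL41, MRPS18B and MRPS9 (all genes: 14.3%). Positive and negative differences were near balance, at 38 and 40 members, with a median log2 difference of -0.0090, against -0.048 over all genes. The share of positive differences among all genes was 43.6%.

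The precision differed widely between members. In 40 members the 95% interval of the difference lay within 1.5-fold in either direction (51.3%, against 32% of all genes). In 16 members the libraries of a group spread over more than 2-fold (20.5%, against 34% of all genes). They included MRPL14, MRPL23, MRPL37, MRPS5 and MRPS16, whose intervals were wide.

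**Figure D2:**
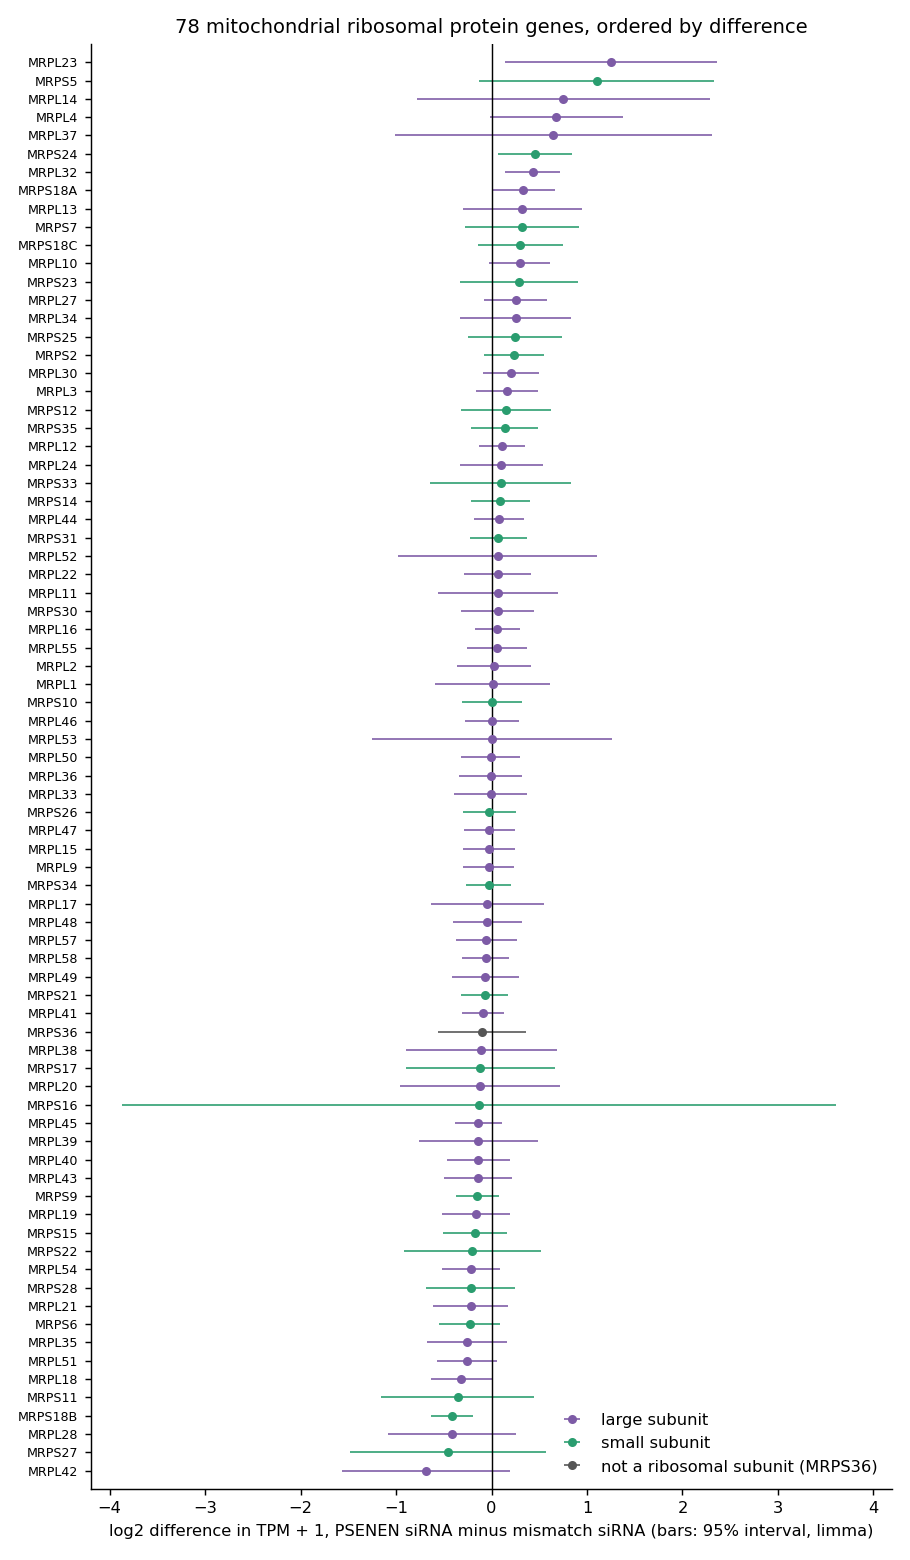
Log2 difference in TPM + 1 between PSENEN siRNA and mismatch siRNA libraries for each of the 78 members, ordered by difference, with 95% intervals from limma, coloured by subunit. Differences run from -0.69 (MRPL42) to 1.25 (MRPL23), and the widest interval belongs to MRPS16.

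Several of the largest positive differences in TPM came with libraries of a group more than 2-fold apart. MRPL23, a protein at the exit of the peptide tunnel, had 60.1, 63.8 and 82.2 TPM with PSENEN siRNA and 20.8, 62.3 and 16.7 TPM with mismatch siRNA (log2 difference 1.25 ± 0.46 SE; limma adjusted p = 0.293). MRPL37, a large subunit protein of mitochondrial origin, had 99.8, 27.9 and 99.7 TPM with PSENEN siRNA and 28.5, 103 and 23.8 TPM with mismatch siRNA. MRPL14, which sits at the interface of the subunits, had 8.87, 7.23 and 47.5 TPM with PSENEN siRNA and 8.60, 8.54 and 7.99 TPM with mismatch siRNA. In these members single libraries of a group stood several-fold apart, and the high ones were not the same libraries from gene to gene.

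MRPS16, a small subunit protein with a bacterial counterpart, was chosen after its values were seen. It had 6.16, 53.9 and 0.257 TPM with PSENEN siRNA and 46.6, 3.30 and 2.16 TPM with mismatch siRNA. Assembled transcripts with introns of MRPS16 and of another gene summed to 27.1, 0 and 29.6 TPM with PSENEN siRNA. With mismatch siRNA they summed to 0, 26.7 and 26.8 TPM. The other gene was not recorded, and DNAJC9 overlaps exons of MRPS16 on the same strand. Such transcripts were present in the 4 libraries where the TPM of MRPS16 was low and stood at 0 in the 2 where it was high. They were assigned to no gene.

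A second measure was therefore set beside TPM, chosen after the values were seen. Internal exon coverage is the mean coverage of the inner exons of a gene's most abundant reference transcript, summed over all listed transcripts of that strand and divided by the gigabases of the library. In this sum, coverage moved from 1 transcript to another that shares the exon stays counted, and the first and last exons are left out. It could be computed for 72 members, since 6 have no inner exon, and 9585 genes were tested by it. Its median SE over members was 0.127, against 0.149 for TPM on their log2 scales.

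By internal exon coverage MRPL37 had 42.5, 40.6 and 41.4 reads per base per gigabase with PSENEN siRNA and 41.4, 42.6 and 35.3 with mismatch siRNA. MRPL14 had 18.3, 20.4 and 21.1 with PSENEN siRNA and 24.2, 18.9 and 18.3 with mismatch siRNA. MRPL23 had 27.9, 30.6 and 39.0 with PSENEN siRNA and 32.1, 27.9 and 28.1 with mismatch siRNA. MRPS16 had 36.2, 38.2 and 41.6 with PSENEN siRNA and 36.6, 32.7 and 37.6 with mismatch siRNA. These values come from 1 inner exon of 261 bases. They can include the transcripts assigned to no gene and those of DNAJC9, so they cannot be assigned to MRPS16 alone. All 4 genes kept within 1.5-fold inside each group by this measure, and their groups overlapped. The last exons, which the measure leaves out, still split in MRPL37 and MRPL14. That of MRPL37 stood at 20.9, 3.67 and 23.5 with PSENEN siRNA and at 3.24, 23.5 and 3.27 with mismatch siRNA. In MRPL14 it stood at 3.25, 2.66 and 23.0 with PSENEN siRNA and at 2.92, 3.05 and 2.92 with mismatch siRNA. The inner part of MRPL14 is 1 exon of 89 bases.

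**Figure D3:**
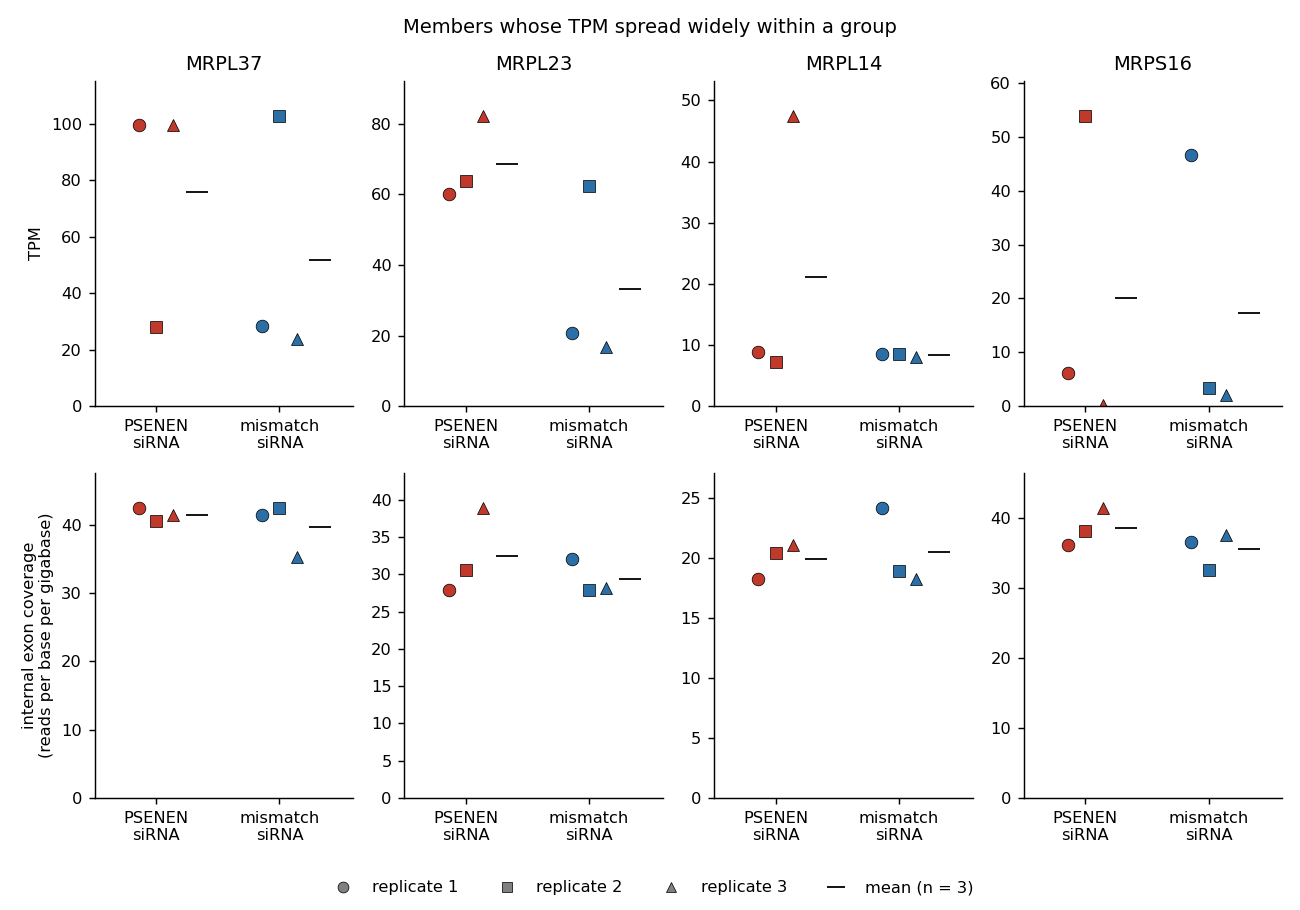
TPM (top row) and internal exon coverage (bottom row) of MRPL37, MRPL23, MRPL14 and MRPS16 in each library, with the mean of each group (n = 3) as a bar. In TPM single libraries of a group stand far apart (MRPL37 from 23.8 to 103 TPM with mismatch siRNA). In internal exon coverage, which leaves out the first and last exons, the libraries lie close together (35.3 to 42.6 for the same gene and group).

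Over the 72 members the exon measure called 2, MRPS24 and MRPL30 (2.78%, against 1.6% of all genes). By direction, 1 member was called higher (all genes: 0.49%) and 1 lower (all genes: 1.11%). At an unadjusted p under 0.05, 13 members were higher (18.1%, against 7.78% of all genes) and 2 were lower (2.78%, against 10.6%). The groups did not overlap in 13 higher members (all genes: 11.4%) and in 4 lower ones (all genes: 14.4%). Differences were positive in 49 members (68.1%, against 48.7% of all genes), with a median log2 difference of 0.070, against -0.0093 over all genes. The higher members at that threshold were MRPL3, MRPL4, MRPL10, MRPL12, MRPL16, MRPL27, MRPL32, MRPS14, MRPS18A, MRPS18C, MRPS24, MRPS25 and MRPS30. Apart from MRPS24 none of these had an adjusted p under 0.05, and MRPL10, MRPL16, MRPL27, MRPS14, MRPS25 and MRPS30 differed by 0.24 to 0.36 on the log2 scale.

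Summed over the 72 members, internal exon coverage was 1425 ± 25.7 with PSENEN siRNA and 1338 ± 58.5 with mismatch siRNA, a ratio of 1.07 (SD, n = 3; two-sided exact permutation p = 0.1). The small subunit summed to 540 ± 10.9 with PSENEN siRNA and 499 ± 16.0 with mismatch siRNA (exact permutation p = 0.1). The large subunit summed to 876 ± 15.9 with PSENEN siRNA and 828 ± 44.6 with mismatch siRNA (exact permutation p = 0.3). The groups did not overlap for the small subunit and, narrowly, for all members (lowest 1404 with PSENEN siRNA, highest 1401 with mismatch siRNA). They overlapped for the large subunit. The called MRPS24 is counted in the sums of all members and of the small subunit. In 18 of the 72 members the 2 measures differed in sign.

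**Figure D4:**
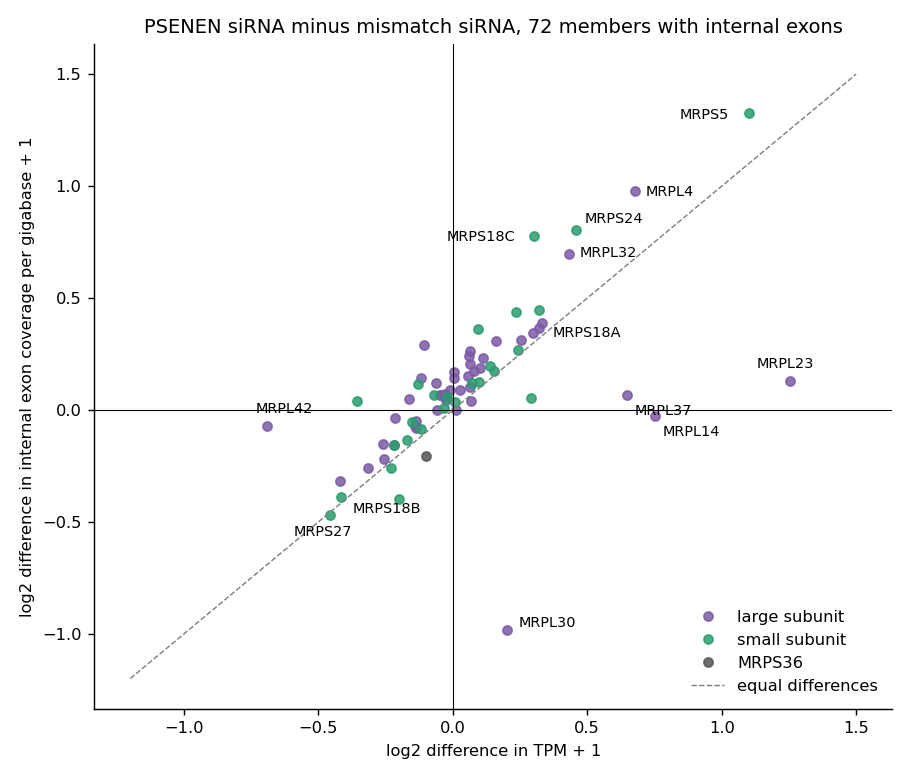
Log2 difference between PSENEN siRNA and mismatch siRNA libraries in internal exon coverage (vertical) against that in TPM (horizontal) for the 72 members with internal exons, coloured by subunit, with the line of equal differences. MRPL23, MRPL37, MRPL14 and MRPL42 lie near 0 on the vertical axis only, and MRPL30 lies at 0.20 in TPM and at -0.99 in exon coverage.

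MRPS24, a small subunit protein with a bacterial counterpart, was the second most abundant member (ENSG00000062582, chr7:43866558-43869893, minus strand, GENCODE 29 on GRCh38). It had 146, 104 and 108 TPM with PSENEN siRNA and 94.4, 87.6 and 75.7 TPM with mismatch siRNA (log2 difference 0.46 ± 0.16 SE; limma adjusted p = 0.273). Its internal exon coverage rose, with 35.9, 33.6 and 36.6 with PSENEN siRNA and 20.1, 18.5 and 20.9 with mismatch siRNA (log2 difference 0.80 ± 0.09 SE; limma adjusted p = 0.0158). All PSENEN siRNA libraries lay above all mismatch siRNA libraries in both measures. The gene TPM includes ENST00000483330, annotated as retaining an intron, at 0.0156, 18.2 and 33.7 TPM with PSENEN siRNA and 0.0144, 0.0165 and 15.5 TPM with mismatch siRNA. The most abundant transcript, ENST00000317534, overlapped between the groups, at 99.0, 54.7 and 70.3 TPM with PSENEN siRNA and 73.8, 63.2 and 36.3 TPM with mismatch siRNA. The exon measure covers 2 inner exons with 181 bases together. Exon 3, for example, stood at 43.9, 41.2 and 45.6 with PSENEN siRNA and at 24.2, 23.4 and 26.8 with mismatch siRNA. The last exon, which holds 425 of the transcript's bases, overlapped between the groups, at 74.3, 40.9 and 55.3 with PSENEN siRNA and at 45.0, 43.3 and 30.6 with mismatch siRNA.

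MRPS24 shares exons with the readthrough gene URGCP-MRPS24, so reads of the 2 genes cannot be separated with certainty. Of its 31-base words 26.7% occur in other genes, URGCP-MRPS24 among them. URGCP-MRPS24 itself was listed at no more than 0.0163 TPM in any library. Assembled transcripts with introns of MRPS24 and of another gene summed to 29.4 TPM in PSENEN siRNA library 3 and to 0 in the other libraries. With each library left out in turn the log2 difference in exon coverage stayed between 0.76 and 0.84. The adjusted p was 0.0333 without mismatch siRNA library 1 and 0.0605 to 0.0695 without any of the other 5 libraries, so the call was lost in those cases.

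MRPL30, a large subunit protein with a bacterial counterpart, fell in internal exon coverage and not in TPM (ENSG00000185414, chr2:99181079-99197626, plus strand, GENCODE 29 on GRCh38). It was chosen for description after its values were seen. Its internal exon coverage was 7.92, 5.99 and 8.67 with PSENEN siRNA and 16.5, 14.5 and 16.2 with mismatch siRNA (log2 difference -0.99 ± 0.14 SE; limma adjusted p = 0.0250). Its TPM was 17.2, 15.1 and 17.7 with PSENEN siRNA and 14.0, 13.5 and 15.6 with mismatch siRNA (log2 difference 0.20 ± 0.12 SE; limma adjusted p = 0.507).

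The 2 measures of MRPL30 differ in what they count. TPM counts whole transcripts assigned to the gene. Exon coverage counts only inner exons, over every listed transcript of the strand, those of other genes included. Each of the 4 inner exons of MRPL30 was lower in every PSENEN siRNA library than in every mismatch siRNA library. Exon 3 stood at 8.90, 6.17 and 9.05 with PSENEN siRNA and at 17.9, 15.2 and 17.5 with mismatch siRNA. The last exon, at 2054 bases most of the transcript, ran the other way, at 5.38, 4.26 and 4.97 with PSENEN siRNA and 3.21, 3.60 and 3.95 with mismatch siRNA. MRPL30 shares exons on its strand with 2 annotated genes not analysed here, AC079447.1 and AC092587.1. Of its 31-base words 25.7% occur in other genes, AC079447.1 among them. Listed transcripts of the 2 overlapping genes would count in the exon measure, so the lower coverage cannot be assigned to MRPL30 alone. With each library left out the log2 difference in exon coverage stayed between -1.08 and -0.85. The adjusted p was then 0.0627 to 0.0826, so the call was lost without any of the 6 libraries.

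**Figure D5:**
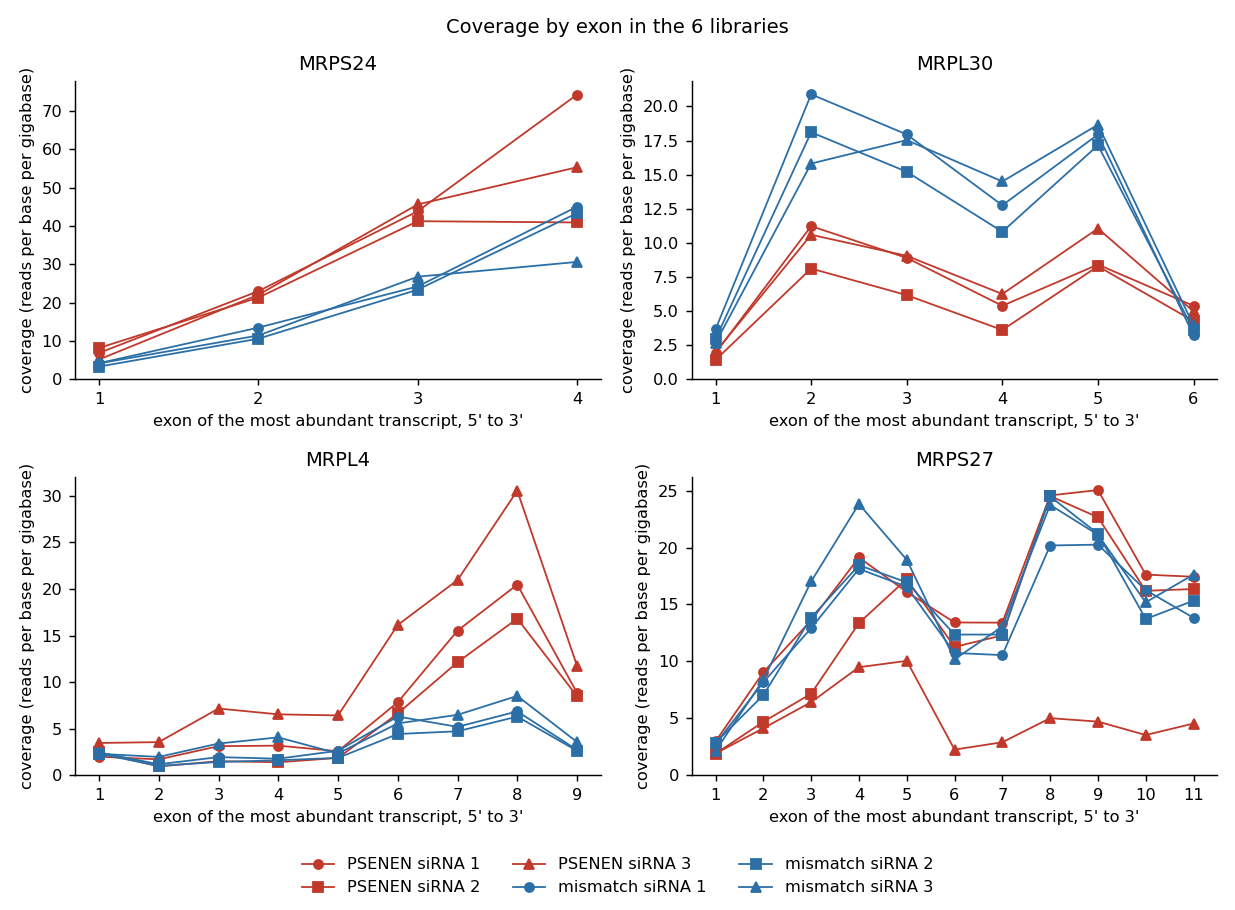
Coverage per gigabase of each exon of the most abundant reference transcript of MRPS24, MRPL30, MRPL4 and MRPS27, exons numbered 5′ to 3′, with a line for each library. The inner exons of MRPS24 are higher and those of MRPL30 lower in all PSENEN siRNA libraries, exons 6 to 9 of MRPL4 are higher, and exons 6 to 11 of MRPS27 are low in PSENEN siRNA library 3 alone.

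The MRPS18 proteins are 3 relatives of 1 bacterial protein: MRPS18C and MRPS18B sit in the small subunit and MRPS18A in the large subunit. MRPS18B had the lowest p of all members in TPM, with 48.6, 50.1 and 52.9 TPM with PSENEN siRNA and 70.8, 67.7 and 64.6 TPM with mismatch siRNA (log2 difference -0.41 ± 0.09 SE; limma adjusted p = 0.132). In internal exon coverage it had 26.1, 26.1 and 29.1 with PSENEN siRNA and 36.0, 37.1 and 34.3 with mismatch siRNA (log2 difference -0.39 ± 0.09 SE; limma adjusted p = 0.0823). In both measures every PSENEN siRNA library lay below every mismatch siRNA library, and in neither did the adjusted p pass.

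MRPS18A had 36.1, 37.3 and 32.4 TPM with PSENEN siRNA and 26.1, 32.9 and 24.8 TPM with mismatch siRNA. Its internal exon coverage was 22.1, 20.5 and 21.4 with PSENEN siRNA and 15.2, 18.4 and 14.8 with mismatch siRNA (log2 difference 0.39 ± 0.11 SE; limma adjusted p = 0.123). MRPS18C, the least abundant member, had 8.41, 11.7 and 7.32 TPM with PSENEN siRNA and 7.63, 6.99 and 6.70 TPM with mismatch siRNA. In internal exon coverage it had 10.6, 12.3 and 5.85 with PSENEN siRNA and 6.03, 3.38 and 5.82 with mismatch siRNA. The log2 difference there was 0.78 ± 0.28 SE (limma adjusted p = 0.206). The groups overlapped in TPM for MRPS18A and MRPS18C and in exon coverage for MRPS18C. They were apart in exon coverage for MRPS18A. The estimates for MRPS18A and MRPS18C were positive and that for MRPS18B negative, with no test of the difference between the relatives.

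Among other large subunit members, MRPL32, a protein matured by a mitochondrial protease before it enters the ribosome, was chosen after its values were seen. It had 47.0, 51.0 and 45.0 TPM with PSENEN siRNA and 39.5, 34.8 and 31.3 TPM with mismatch siRNA (log2 difference 0.43 ± 0.12 SE; limma adjusted p = 0.195). Over internal exons its coverage was 26.2, 28.1 and 24.3 with PSENEN siRNA and 16.5, 20.1 and 11.7 with mismatch siRNA (log2 difference 0.70 ± 0.18 SE; limma adjusted p = 0.105). The groups did not overlap in either measure. MRPL32 overlaps exons of PSMA2 on the opposite strand, and the strandedness of the libraries is not given in the sources used here.

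MRPL4, which lines the peptide tunnel, had 13.7, 11.9 and 25.3 TPM with PSENEN siRNA and 9.38, 8.08 and 11.9 TPM with mismatch siRNA. Its internal exon coverage was 7.58, 5.74 and 12.9 with PSENEN siRNA and 3.73, 3.01 and 4.53 with mismatch siRNA (log2 difference 0.98 ± 0.26 SE; limma adjusted p = 0.112). The groups were apart in exons 6 to 9, and exon 8 stood at 20.5, 16.8 and 30.6 with PSENEN siRNA and 6.85, 6.29 and 8.51 with mismatch siRNA. In exons 2 to 5 the groups overlapped, and 2 annotated genes overlap MRPL4 on the opposite strand. MRPL12, a protein of the factor-binding stalk of the ribosome, averaged 76.3 TPM. Of its 31-base words 67.2% occur in other genes, AC139530.2 among them, so its level is uncertain.

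Negative differences among large subunit members were led by MRPL42, a mitochondria-specific protein. It had 12.1, 31.1 and 15.5 TPM with PSENEN siRNA and 38.2, 21.3 and 32.5 TPM with mismatch siRNA (log2 difference -0.69 ± 0.37 SE; limma adjusted p = 0.454), and its difference in internal exon coverage was -0.07. Its protein-coding transcript ENST00000548545 was at 0.784, 0.266 and 1.30 TPM with PSENEN siRNA and at 9.76, 7.07 and 7.81 TPM with mismatch siRNA, values chosen after they were seen and given without a test. MRPL28 had 26.6, 34.9 and 27.9 TPM with PSENEN siRNA and 55.8, 44.0 and 25.8 TPM with mismatch siRNA. MRPL18 had 52.0, 59.7 and 54.5 TPM with PSENEN siRNA and 78.1, 71.9 and 58.7 TPM with mismatch siRNA. The groups overlapped in the summed TPM of MRPL42, MRPL28 and MRPL18, although that single transcript of MRPL42 did not.

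Among small subunit members, MRPS5, whose bacterial relative helps to set the accuracy of decoding, had 24.0, 58.5 and 42.7 TPM with PSENEN siRNA and 9.65, 15.3 and 37.1 TPM with mismatch siRNA. The coverage of its internal exons was 11.0, 30.6 and 17.9 with PSENEN siRNA and 2.79, 5.03 and 19.0 with mismatch siRNA (log2 difference 1.33 ± 0.61 SE; limma adjusted p = 0.300). Mismatch siRNA library 3 stood apart from the other 2 of its group in both measures. MRPS27, an RNA-binding protein of the pentatricopeptide family, had 46.6, 47.9 and 15.0 TPM with PSENEN siRNA and 40.3, 44.6 and 50.1 TPM with mismatch siRNA. PSENEN siRNA library 3 was low in exons 6 to 11, with exon 8 at 24.6, 24.5 and 5.01 with PSENEN siRNA and 20.2, 24.5 and 23.8 with mismatch siRNA. MRPS11, next to the mRNA exit, had 8.66, 11.2 and 6.6 TPM with PSENEN siRNA and 17.9, 11.3 and 7.03 TPM with mismatch siRNA, and the groups overlapped.

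Grouped by ancestry, the 29 large subunit proteins with a bacterial counterpart had a median log2 difference in TPM of 0.06, with 17 positive, and the 22 others had a median of -0.06, with 8 positive. The 16 small subunit proteins with a bacterial counterpart had a median of -0.03, with 8 positive, and the 10 others had a median of 0.02, with 5 positive. MRPS18C was placed among the proteins with a bacterial counterpart, and its relatives MRPS18A and MRPS18B among the others. None of these classes held a called gene in TPM. In exon coverage the 4 classes had medians between 0.06 and 0.09.

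By transcript type, protein-coding reference transcripts held 90.1% ± 4.0 of member TPM with PSENEN siRNA and 88.9% ± 2.10 with mismatch siRNA (SD, n = 3). Transcripts annotated as targets of nonsense-mediated decay, the pathway that destroys RNAs with an early stop, held 0.207%, 0.168% and 0.353% with PSENEN siRNA. They held 0.767%, 0.398% and 0.810% with mismatch siRNA (exact permutation p = 0.1; p = 0.25 adjusted over 5 types). Annotated non-coding processed transcripts held 2.33%, 2.31% and 2.20% with PSENEN siRNA and 3.69%, 2.91% and 2.72% with mismatch siRNA (exact permutation p = 0.1; p = 0.25 adjusted over 5 types). The groups did not overlap in either type. With 3 against 3 libraries the exact test allows no p under 0.1, so neither type could have passed after adjustment. This test therefore cannot decide whether the shares differ.

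MRPL32 held much of the decay-annotated share in mismatch siRNA libraries 1 and 3, and less in library 2. Its transcript ENST00000432845 was listed at 0 in all 3 libraries with PSENEN siRNA, against 5.76, 1.40 and 3.25 TPM with mismatch siRNA. Its transcript ENST00000413995 was also listed at 0 in all PSENEN siRNA libraries and was at 6.65, 0 and 9.54 TPM in mismatch siRNA libraries. Without MRPL32, the share was 0.211%, 0.172% and 0.359% with PSENEN siRNA and 0.345%, 0.351% and 0.286% with mismatch siRNA. On average decay-annotated transcripts then held 0.247% ± 0.0986 with PSENEN siRNA and 0.327% ± 0.0362 with mismatch siRNA, and the groups overlapped (SD, n = 3; exact permutation p = 0.4).

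The genes around the mitoribosome were read from 6 lists, in which limma called none in TPM or in exon coverage. At an unadjusted p under 0.05, 3 of the 93 list genes tested in TPM were higher (3.23%, against 4.63% of all genes) and 6 were lower (6.45%, against 9.72%). In exon coverage, 11 of 84 were higher (13.1%, against 7.78% of all genes) and 3 were lower (3.57%, against 10.6%). The 5 ribosome proteins with other names, such as PTCD3 and CHCHD1, had a median log2 difference in TPM of 0.05, which turned to -0.092 without PSENEN siRNA library 1 and to -0.054 without mismatch siRNA library 2. In exon coverage the median of the 4 that could be measured was 0.17, and all 4 were positive (all genes: 48.7%). PTCD3 had 22.2, 22.1 and 23.4 TPM with PSENEN siRNA and 26.5, 16.4 and 17.9 TPM with mismatch siRNA. CHCHD1 had 14.1, 12.2 and 13.6 TPM with PSENEN siRNA and 15.6, 13.7 and 14.9 TPM with mismatch siRNA. Neither gene differed beyond its spread between libraries.

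The 15 translation factors had a median of 0.03 in TPM, and 1 of them, LRPPRC, was higher at an unadjusted p under 0.05 (6.67%, against 4.63% of all genes). In exon coverage 3 of 14 were higher at that threshold (21.4%, against 7.78% of all genes), with a median of 0.16. LRPPRC, which stabilises mitochondrial mRNAs, had 72.2, 75.6 and 77.5 TPM with PSENEN siRNA and 63.0, 55.2 and 58.7 TPM with mismatch siRNA (log2 difference 0.35 ± 0.10 SE; limma adjusted p = 0.191). TSFM, an elongation factor, had 12.8, 14.2 and 9.98 TPM with PSENEN siRNA and 17.7, 13.3 and 14.1 TPM with mismatch siRNA. The groups were apart for LRPPRC and overlapped for TSFM.

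The 22 aminoacyl-tRNA synthetases and formylation enzymes had a median of -0.11 in TPM and of -0.0086 in exon coverage. HARS2, the histidyl-tRNA synthetase, had 12.5, 13.3 and 16.9 TPM with PSENEN siRNA and 2.63, 9.27 and 10.3 TPM with mismatch siRNA. SARS2, the seryl-tRNA synthetase, had 5.45, 3.44 and 6.02 TPM with PSENEN siRNA and 7.79, 9.75 and 7.82 TPM with mismatch siRNA. The groups were apart in opposite directions in these 2 genes, and neither passed (limma adjusted p = 0.358 for HARS2 and 0.233 for SARS2).

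The 29 genes of ribosome assembly and rRNA modification had a median of 0.02 in TPM, with 2 higher and 2 lower at an unadjusted p under 0.05 (6.9% each, against 4.63% and 9.72% of all genes). That median was -0.016 without PSENEN siRNA library 3 and -0.023 without mismatch siRNA library 3. In exon coverage 4 of 26 were higher (15.4%) and 1 was lower (3.85%), with a median of 0.098. TFB1M, which methylates the small subunit rRNA, had 14.6, 19.1 and 21.5 TPM with PSENEN siRNA and 11.3, 12.9 and 11.1 TPM with mismatch siRNA (log2 difference 0.59 ± 0.17 SE; limma adjusted p = 0.199). By internal exon coverage its log2 difference was 0.71 ± 0.14 SE (limma adjusted p = 0.0547). MPV17L2, a protein of the inner membrane needed for ribosome assembly, had 6.50, 7.48 and 7.10 TPM with PSENEN siRNA and 10.1, 11.1 and 11.3 TPM with mismatch siRNA (log2 difference -0.56 ± 0.13 SE; limma adjusted p = 0.132). The groups did not overlap in TFB1M or in MPV17L2, and neither passed the adjusted threshold.

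The 13 genes of mitochondrial transcription and RNA processing had a median of -0.03 in TPM. TFAM, which packages mitochondrial DNA and starts its transcription, had 12.4, 11.2 and 15.5 TPM with PSENEN siRNA and 26.7, 19.9 and 17.6 TPM with mismatch siRNA (log2 difference -0.66 ± 0.19 SE; limma adjusted p = 0.213). TEFM, an elongation factor of mitochondrial transcription, had 12.9, 13.7 and 14.5 TPM with PSENEN siRNA and 12.9, 11.6 and 9.66 TPM with mismatch siRNA. The groups were apart for TFAM and overlapped for TEFM.

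Of the 9 tested regulators of mitochondrial biogenesis, 1 had a positive and 8 had a negative difference in TPM (all genes: 43.6% positive), with a median of -0.07, which ran from -0.16 to -0.021 with a library left out. In exon coverage 3 were positive and 6 negative, with a median of -0.047. YY1 had 27.9, 33.6 and 27.9 TPM with PSENEN siRNA and 45.6, 46.4 and 33.2 TPM with mismatch siRNA (log2 difference -0.46 ± 0.16 SE; limma adjusted p = 0.274). NRF1, a transcription factor of many mitochondrial genes, had 11.6, 8.87 and 7.83 TPM with PSENEN siRNA and 9.81, 9.35 and 7.60 TPM with mismatch siRNA. The groups overlapped for both factors, and neither passed. The 2 mitochondrial rRNA genes, MT-RNR1 and MT-RNR2, were listed at no more than 0.0232 TPM in any library and were below the minimum for testing.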

How the data were processed

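The authors deposited 1 StringTie assembly per library, with TPM, FPKM and coverage per transcript, per the file headers. No file gives read counts, while aligner, StringTie version and strandedness are not stated in the sources. Bowtie 0.12.2 and mouse builds (mm8, mm9) appear in the submitters' processing notes, although the files are human. Of 92263 named reference transcripts found in GENCODE 29, 98.4% had the same position.

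Gene TPM summed reference transcripts and assembled transcripts that share introns with 1 gene only. Depth was estimated as coverage divided by FPKM. limma 3.58.1 (R 4.3.3) with an intensity trend was fitted to log2(TPM + 1) over genes reaching 1 TPM in at least 3 libraries, with a single term for the group. A fold change on this scale understates the change of low genes. Internal exon coverage was fitted in the same way. The steps were tested on simulated data. Library sums were compared by exact permutation tests. The members, lists and tests were chosen with earlier results of these data known. The text names the 6 members with the largest positive and the 6 with the largest negative difference, the 4 most abundant, the 3 MRPS18 genes and, per list, the gene with the smallest p in each direction. Other genes named with values were chosen after their values were seen. The rest ran in Python 3.11.15 with matplotlib 3.10.9, SciPy 1.17.1, pandas 2.3.3 and NumPy 2.4.6.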

Additional observations from a re-analysis of the deposited data

How the results depend on the processing

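No member was called in TPM under any of the alternatives tried on TPM (other pseudocounts, filters and scalings, FPKM, no trend, replicate block, reference transcripts only, assembled bases, each library left out). Internal exon coverage called 2. Members higher at an unadjusted p under 0.05 numbered 7 with quantile normalization, 7 with assembled bases, 13 with internal exon coverage and 2 to 4 with a library left out. Lower members numbered 2 with no filter, with reference transcripts only and with internal exon coverage, and 1 to 7 with a library left out, the 7 without mismatch siRNA library 3. The cause was not tested.

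The log2 ratio of summed TPM turned to -0.23 with assembled bases (large subunit -0.21, small subunit -0.25, small to large ratio -0.052), and it ran from -0.031 to 0.10 with a library left out (large subunit -0.039 to 0.085, small subunit -0.015 to 0.13, ratio -0.023 to 0.062). The sums fell below 0 without mismatch siRNA library 3 and the ratio without PSENEN siRNA library 2 or mismatch siRNA library 2. The median of the synthetases, -0.11 in TPM, was -0.037 with FPKM, -0.061 with median-of-ratios scaling, -0.032 with quantile normalization, -0.018 with reference transcripts only, -0.025 with assembled bases, -0.0086 with internal exon coverage and -0.10 to -0.024 with a library left out. The median of the transcription genes was 0.039 with FPKM, 0.021 with median-of-ratios scaling, 0.046 with quantile normalization, 0.057 with assembled bases and -0.077 to 0.0019 with a library left out. The median of the members, -0.0090 in TPM, was 0.059 with FPKM, 0.041 with median-of-ratios scaling, 0.052 with quantile normalization, 0.062 with assembled bases and -0.054 to 0.065 with a library left out. That of the translation factors was 0.16 with internal exon coverage.

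The 2 calls by internal exon coverage numbered 2 with a pseudocount of 0.1, with no filter and with median-of-ratios scaling, and numbered 0 to 2 with a library left out. With the replicate number as a block, 0 members were called by internal exon coverage and 0 in TPM, and 4 genes of all were called in TPM, against 80 without the block. Same-numbered libraries did not deviate together across genes (r = -0.062, 0.001 and -0.023), so the numbers were not taken as pairs. Over all genes 9 to 12 were called with a library left out, 135 with assembled bases and 153 by internal exon coverage. Exon measures were added after the data were seen, and depth limits the low exons most.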
